A study of Mus musculus with 3 samples.

Results

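Malat1, Meg3, Rian, Mirg, Miat, Snhg11, Neat1, Gas5 and Snhg1 are long noncoding RNAs of neurons. They were taken by symbol from count tables of RNA bound to tagged ribosomes, and all 9 were among the 32531 gene symbols of each table. The RNA came from the prefrontal cortex of adult, untreated Slc17a6-TRAP JX883 mice, which carry the EGFP/Rpl10a fusion, a tagged protein of the large ribosomal subunit. The promoter region of Slc17a6, the gene of the vesicular glutamate transporter VGLUT2, names the line, so tagged ribosomes stand for the cells in which this transgene is active. In translating ribosome affinity purification (TRAP), tagged polysomes are pulled down with antibodies to EGFP and their RNA is sequenced. There were 3 immunopurified libraries, each from a pool of 3 mice, and they form 1 group. No input RNA and no untagged control were analysed here, so a level is abundance in the immunopurified RNA, not enrichment over tissue. RNA that came down with the beads free of tagged ribosomes cannot be told apart from RNA on them, and fewer cells with an RNA and less RNA per cell cannot be told apart either.

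Long noncoding RNAs are transcribed and often spliced like messages but hold no long reading frame. Malat1 is kept in the nucleus and collects at speckles, where splicing factors are stored. The long form of Neat1 is the scaffold of paraspeckles, and Miat, also called Gomafu, forms nuclear spots of its own in neurons. Meg3, Rian and Mirg are expressed from the maternal copy of the imprinted Dlk1-Dio3 region, where Rian contains small nucleolar RNAs (snoRNAs) and Mirg contains microRNAs. Gas5 and Snhg1 are spliced hosts of snoRNAs whose exported transcripts can meet ribosomes and are degraded by nonsense-mediated decay, a pathway that removes RNAs on which translation stops early. Snhg11 is a further snoRNA host, enriched in brain.

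Several of these RNAs carry short elements by which they are known, and these are printed to show what kind of RNA was counted. The transcripts of Malat1 and Neat1 end in a shared element that folds into a triple helix and protects the RNA without a poly(A) tail. On the minus strand of mm10 it lies at chr19:5795982-5796067 in the single exon of Malat1 and at chr19:5824708-5824797 in the single exon of the long Neat1 transcript. The capitals mark the U-rich stretches and the A-rich stretch that pair with each other.
Malat1: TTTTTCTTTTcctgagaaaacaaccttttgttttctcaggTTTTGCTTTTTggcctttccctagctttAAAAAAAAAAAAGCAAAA
Neat1: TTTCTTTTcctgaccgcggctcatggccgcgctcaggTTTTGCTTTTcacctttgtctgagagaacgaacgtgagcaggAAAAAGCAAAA
The letters common to both (TTTCTTTT, then TTTTGCTTTT, then AAAAAGCAAAA, with 10 to 60 bases between each, sense strand) were found in 2 of 141767 GENCODE M21 transcripts, those of Malat1 and Neat1. The pattern was read from these sequences, so that count is a description. In Malat1 the element ends directly before the annotated start of mascRNA, the small RNA cut from its end.

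Miat is known for repeats of TACTAAC, which resemble the branch point that splicing factor 1 binds. Its longest transcript held 6 of them on the sense strand, and the densest stretch lies in exon 7 at chr5:112216752-112216812 on the minus strand of mm10. The capitals mark the repeats.
Miat: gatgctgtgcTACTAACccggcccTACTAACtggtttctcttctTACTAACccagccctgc
Transcripts with 6 or more such sites made up 0.00353% of all GENCODE transcripts and belonged to 4 genes. Among the other noncoding RNAs described here, the longest transcript of Neat1 held 1 site and those of the remaining 7 held 0.

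The start sites of Gas5 and Snhg1 are shown because snoRNA hosts are known for terminal oligopyrimidine starts, a C followed by a run of C and T that ties translation to growth signals. The stretches run from 20 bases before to 50 bases from the RefSeq start (GRCm38.p6), at chr1:161035146-161035215 and chr19:8723467-8723536, both on the plus strand, and the capitals mark the run that opens the transcript.
Gas5: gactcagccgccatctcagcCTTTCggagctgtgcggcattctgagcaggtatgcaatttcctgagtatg
Snhg1: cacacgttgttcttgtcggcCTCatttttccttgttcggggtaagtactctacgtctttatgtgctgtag
The run was 5 bases at this Gas5 start, the downstream one of its 2 RefSeq starts, and 3 bases at that of Snhg1. This Gas5 start was chosen for its longer run, and the upstream start had a run of 0. Miat, which is not known for such a start, had a run of 6, Mirg one of 4, and Malat1, Meg3, Rian and Snhg11 at most 1. Runs of 5 or more opened 2.51% of 32851 RefSeq starts. On a list of classical oligopyrimidine messages, 2 of the 14 matched genes (14.3%) had such a run at any of their starts. The first share is by start and the second by gene, so they differ in unit. Annotated starts thus showed the run in few of the genes known for it.

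Named genes held 12592174 counts in replicate 1, 8964137 in replicate 2 and 12648577 in replicate 3. The driver gene Slc17a6 stood at 831 ± 97.4 CPM (counts scaled to 1e6 counts in named genes; SD, n = 3), and all 16 of 16 neuronal coding messages listed reached 1 CPM in every library. Over all protein-coding genes 57.3% did so. Messages of other cells were also present. Summed over 10 astrocyte markers the level was 2076, 2286 and 2549 CPM in replicates 1, 2 and 3, and all 10 reached 1 CPM in every library. Over 10 oligodendrocyte markers, of which 9 did so, it was 489, 657 and 670 CPM. For 10 microglia and endothelial markers, of which 7 did so, the sum was 39.5, 38.0 and 47.3 CPM, and C1qa was at 0 counts.

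Of the RNAs known to stay in the nucleus, Malat1 was abundant, Miat low and Neat1 close to the limit of detection. Whether the libraries captured RNA without a poly(A) tail, such as Malat1 and long Neat1, as well as messages was not tested. Malat1 (ENSMUSG00000092341.3, mm10 chromosome 19, 5795690 to 5802672) had 929, 1183 and 1258 CPM in replicates 1, 2 and 3, from 11692, 10604 and 15911 counts. It was lowest in replicate 1, and its mean of 1123 ± 173 CPM (SD, n = 3) put it at rank 65 of all genes and first among 1757 long noncoding genes in the tables. Neat1 (ENSMUSG00000092274.3, chromosome 19, 5824708 to 5845478), which lies close to Malat1 in the genome, had 22, 27 and 3 counts in replicates 1, 2 and 3, equal to 1.75, 3.01 and 0.237 CPM. Exact Poisson 95% intervals, which cover counting error only, ran from 1.98 to 4.38 CPM in replicate 2 and from 0.0489 to 0.693 CPM in replicate 3. The mean of Neat1 was 1.67 ± 1.39 CPM, against 2.38 CPM without replicate 3 and 0.992 CPM without replicate 2.

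Miat (ENSMUSG00000097767.8, chromosome 5, 112213228 to 112229395) had 13.3, 10.8 and 12.2 CPM in replicates 1, 2 and 3, from 167, 97 and 154 counts. These values lay close together, at 12.1 ± 1.22 CPM. Of the exonic bases of Miat, 30.4% were shared with other annotated genes, a larger share than the 1.56% to 20.9% of the other 8 RNAs, and reads in shared bases may have been left uncounted.

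**Figure D1:**
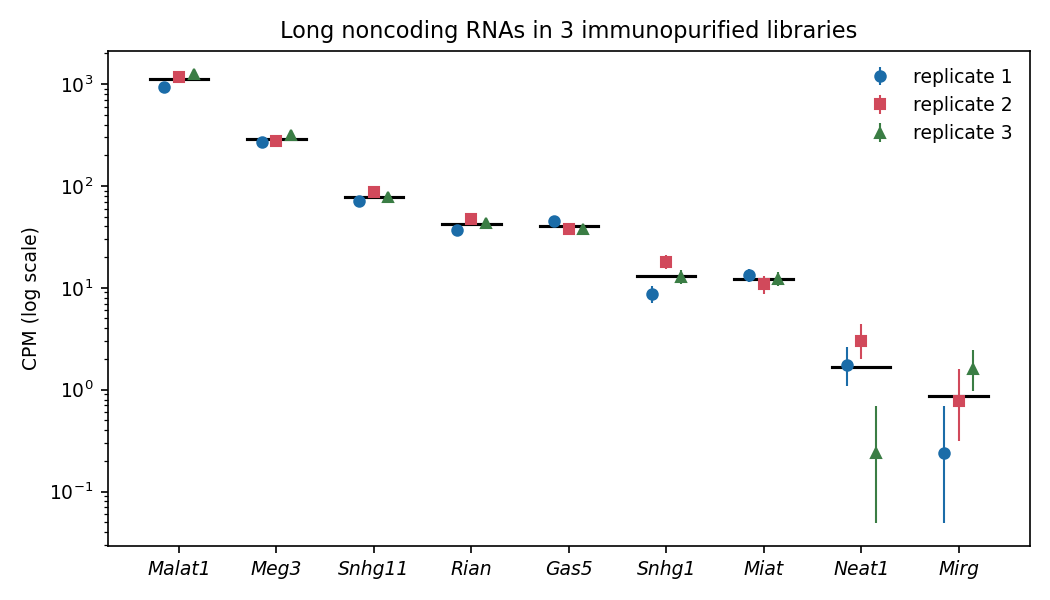
Levels of the 9 long noncoding RNAs in CPM on a log axis, in order of the mean. Points are the 3 libraries with exact Poisson 95% intervals, and black lines are means. Malat1 sits between 929 and 1258 CPM, while Neat1 and Mirg differ most between libraries, with intervals that reach below 0.1 CPM at 3 counts.

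The 3 maternally expressed RNAs of the Dlk1-Dio3 region differed widely in level, in the order in which they lie along chromosome 12. Meg3 (ENSMUSG00000021268.17, 109541001 to 109571726), the first of them, had 270, 275 and 315 CPM in replicates 1, 2 and 3, with a mean of 286 ± 24.6 CPM (SD, n = 3). Rian (ENSMUSG00000097451.10, 109603940 to 109661716) had 37.2, 47.0 and 43.3 CPM, with a mean of 42.5 ± 4.95 CPM. Both were detected at similar levels in all 3 libraries. Mirg (ENSMUSG00000097391.8, 109729764 to 109749460) had 3, 7 and 20 counts, equal to 0.238, 0.781 and 1.58 CPM. It reached 1 CPM only in replicate 3, and its mean was 0.867 CPM with that library and 0.510 CPM without it.

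Per kilobase of merged exons (RPKM, CPM divided by kilobases), Meg3 stood at 15.8 ± 1.36 and Rian at 2.33 ± 0.272, so that Meg3 exceeded Rian 6.81-fold, a log2 difference of 2.77 ± 0.18 that was positive in each of the 3 libraries (two-sided exact permutation of signs, p = 0.25, the smallest that 3 libraries can give). Mirg stood at 0.0327, 0.107 and 0.217 RPKM in replicates 1, 2 and 3. Among the paternally expressed coding genes of the region, Dlk1, which encodes a membrane protein of the Notch ligand family, stood at 43.5 ± 7.90 RPKM, so Meg3 was 1.45 ± 0.14 lower than Dlk1 in log2, in each of the 3 libraries (exact permutation of signs, p = 0.25). The size of this difference rests on the 18089 bases of merged exons assigned to Meg3. With the shortest RefSeq-linked transcript of each gene, which is 1896 bases for Meg3, the log2 difference was -0.52. In CPM, which leaves length out, its sign turned to 0.23, with Dlk1 at 228, 214 and 297 CPM. The retrotransposon-derived gene Rtl1 was at 0.475, 0.246 and 0.162 RPKM. Dio3, a deiodinase that inactivates thyroid hormone, was at 0.156, 0.220 and 0 RPKM. Of 7 listed genes of the region found in the tables, 4 reached 1 CPM in every library, against 6 of 7 neighbours outside it, led by the tryptophanyl-tRNA synthetase gene Wars at 89.3 ± 7.44 CPM. Over all symbols 37.9% reached 1 CPM in every library, and over protein-coding genes 57.3%.

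**Figure D2:**
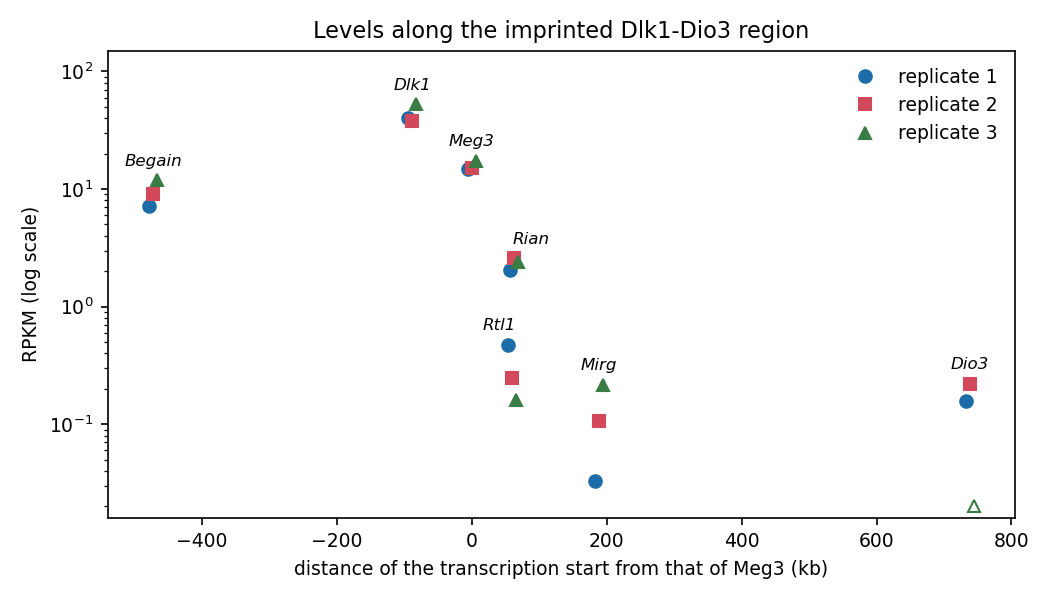
RPKM on a log axis against the distance of each gene's start from that of Meg3 in kilobases, for 7 genes in and beside the imprinted region. Symbols are the 3 libraries, drawn slightly apart, and the open triangle at the lower edge is the value of 0 of Dio3 in replicate 3. Meg3 lies between 14.9 and 17.4 RPKM, Rian between 2.04 and 2.58 and Mirg between 0.0327 and 0.217.

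Of Snhg11, Gas5 and Snhg1, the first pair varied little between libraries and Snhg1 more. Snhg11 (ENSMUSG00000044349.15, chromosome 2, 158375638 to 158386145) had 70.9, 86.9 and 77.8 CPM in replicates 1, 2 and 3, or 78.5 ± 8.02 CPM (SD, n = 3). GENCODE M21 lists it as protein coding and RefSeq as a long noncoding RNA. Gas5 (ENSMUSG00000053332.13, chromosome 1, 161034422 to 161038539) had 44.8, 37.9 and 38.2 CPM, or 40.3 ± 3.89 CPM. Snhg1 (ENSMUSG00000108414.1, chromosome 19, 8723475 to 8726443) had 8.66, 17.8 and 12.7 CPM from 109, 160 and 161 counts, or 13.1 ± 4.61 CPM. Replicate 1 was lowest and replicate 2 highest for Snhg1.

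Other noncoding hosts were measured too. Of 16 listed hosts in the tables, 11 reached 1 CPM in every library, and these include Snhg11, Rian, Gas5 and Snhg1. Over all symbols 37.9% did so, and over long noncoding genes other than the 9 it was 12%. After these came Snhg14 at 12.4 ± 1.99 CPM and Snhg12 at 10.3 ± 5.12 CPM, named after their values were seen. Snhg8 was lowest, with 0, 2 and 0 counts.

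The small RNAs that lie inside these genes were nearly absent from the tables' counts. RefSeq places 45 of them within the bounds of the 9 genes, and 22 had a row of their own, of which 17 were at 0 in all libraries. Whether the libraries captured RNAs of this size was not tested. Some of them share exonic bases with their host, where reads may have been left uncounted. The exception, chosen after its values were seen, was DQ267101, a box C/D snoRNA within Rian, at 80, 71 and 107 counts in replicates 1, 2 and 3, or 6.35, 7.92 and 8.46 CPM. It is printed as the one hosted RNA with counts in every library above the limit of 3. It shares exonic bases with Rian in GENCODE M21, so reads of the Rian transcript and of the snoRNA cannot be told apart. It lies at chr12:109651424-109651496 on the plus strand of mm10, and the capitals mark the TGATGA and CTGA that match box C and box D, the elements that bind the snoRNA proteins.
DQ267101: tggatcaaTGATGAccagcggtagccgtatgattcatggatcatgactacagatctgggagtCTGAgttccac
Of the other 4 rows with a count, AF357425 and AF357426 had at most 5 counts in any library, Mir370 had 1 count in all and Mir377 had 8 counts, all in replicate 1.

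In order of mean RPKM the 9 RNAs were Malat1 at 161 ± 24.7, Meg3, Gas5 at 10.7 ± 1.03, Snhg11 at 9.22 ± 0.941, Snhg1 at 4.40 ± 1.55, Rian, Miat at 1.30 ± 0.132, Mirg at 0.119 ± 0.0926 and Neat1 at 0.0802 ± 0.0669 (SD, n = 3). Differences between neighbours were taken within each library as log2(RPKM + 0.1). Malat1 exceeded Meg3 by 3.33 ± 0.16 and Miat exceeded Mirg by 2.76 ± 0.70. With a pseudocount of 0.01 RPKM the step from Miat to Mirg was the larger of these, at 3.65 against 3.34, so the steps have no fixed order of size. Meg3 exceeded Gas5 by 0.56 ± 0.23, Snhg11 exceeded Snhg1 by 1.10 ± 0.37, Snhg1 exceeded Rian by 0.84 ± 0.35 and Rian exceeded Miat by 0.79 ± 0.30. These 6 differences had the same sign in each of the 3 libraries (exact permutation of signs, p = 0.25 each, so none could pass 0.05). Gas5 and Snhg11 did not differ beyond their spread, at 0.22 ± 0.27 with Gas5 higher in 2 of 3 (exact permutation of signs, p = 0.5). Mirg and Neat1 did not either, at 0.26 ± 1.08 with Mirg higher in 1 of 3 (exact permutation of signs, p = 1). The length assigned decides part of this order. With the longest RefSeq-linked transcript, Snhg1 stood at 21.6 RPKM, above Meg3 at 19.7, Gas5 at 15.8 and Snhg11 at 13.4 RPKM. Rian had no RefSeq-linked transcript, and its longest GENCODE transcript was used instead. Counted over its shorter transcript of 3004 bases alone, Neat1 would stand at 0.554 RPKM, and Meg3 over its shortest RefSeq-linked one at 151 RPKM, a log2 difference of 0.08 between Malat1 and Meg3.

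Set against messages, the noncoding RNAs ranged from below nearly all coding genes to above most of them. Their median was 4.40 RPKM, against 5.45 RPKM over 11312 protein-coding genes that reached 1 CPM in all 3 libraries, of which the middle 50% lay between 2.10 and 14.3 RPKM. Malat1 stood above 98.8% of these coding genes, Meg3 above 77.1%, Gas5 above 68.0% and Snhg11 above 64.1%. Snhg1 stood above 43.9%, Rian above 27.4% and Miat above 15.2%. Among coding genes with a count in any library the value was 44.9% for Rian and 35.4% for Miat, and on the CPM scale 62.9% for Rian and 31.0% for Miat. Neat1 and Mirg stood above fewer than 1% of them (0.00884% and 0.0442%), but neither passed the 1 CPM minimum that chose the coding genes. Among coding genes with a count in any library they stood above 9.93% and 12.5%. Of the 9 RNAs, 7 passed it, as did 57.3% of protein-coding genes.

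**Figure D3:**
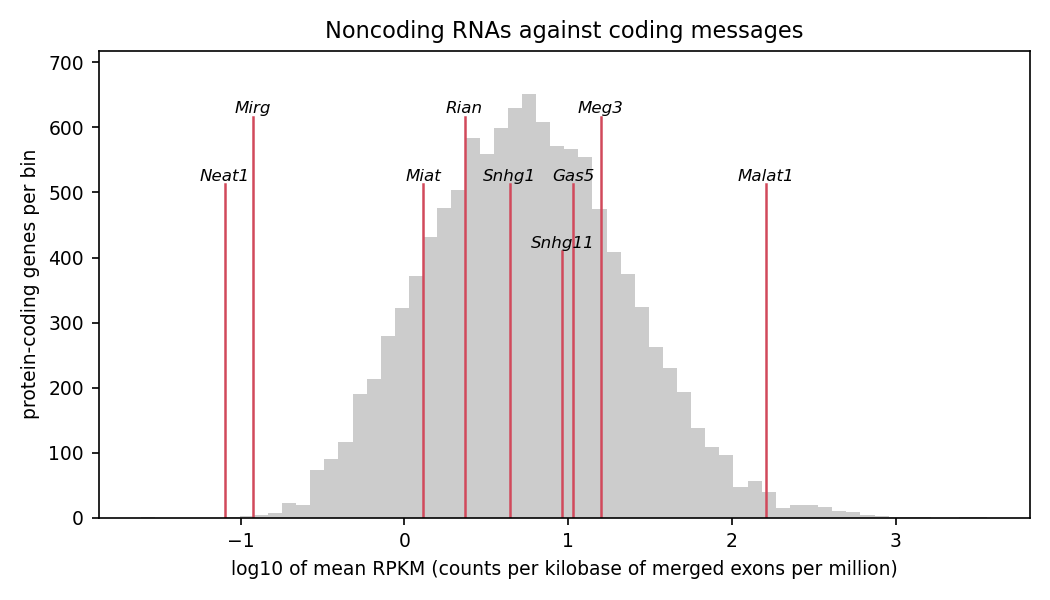
Histogram of the log10 of mean RPKM of 11312 protein-coding genes (grey, genes per bin), with a red line at the mean of each noncoding RNA; line heights carry no value. Meg3, Gas5, Snhg11 and Malat1 lie above the coding median of 5.45 RPKM, and Neat1 and Mirg lie at or below the lower edge of the coding genes.

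Annotation as noncoding rests in part on reading frames, so the longest frame from an ATG to a stop is given as a description. In the longest GENCODE transcript it held 58 codons in Gas5, 64 in Malat1, 66 in Snhg1, 76 in Rian, 89 in Snhg11, 98 in Miat, 101 in Mirg, 126 in Neat1 and 186 in Meg3. As a share of the transcript it covered a median of 3.84%, from 1.82% in Neat1 to 7.93% in Mirg. In the longest transcripts of the 11312 coding genes the median was 40.4%. The share in Mirg, the highest of the 9, exceeded that of 3.48% of coding genes.

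Coding genes that work with these RNAs were present throughout, where 57.3% of all protein-coding genes reached 1 CPM in every library. All 12 of 12 nuclear speckle protein genes reached 1 CPM in every library, with a median of 16.9 RPKM, against 161 RPKM for Malat1. They were led by the speckle scaffold gene Srrm2 at 945 ± 25 CPM and Srsf5 at 266 ± 21 CPM, and the splicing factor gene Srsf6 was lowest at 28.1 ± 9.30 CPM. All 12 of 12 paraspeckle protein genes did so too, with a median of 13.1 RPKM, against 0.0802 RPKM for Neat1. Hnrnpk stood at 166 ± 15.6 CPM, Matr3 at 161 ± 30.9 CPM and Rbm14 at 10.5 ± 1.71 CPM. In mean RPKM each of these 12 messages stood above Neat1. Of 5 splicing factor genes listed as binding Miat, Celf2 stood at 726 ± 77.2 CPM, Celf1 at 210 ± 11.1 CPM and Srsf1 was lowest at 50.4 ± 8.05 CPM.

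The machinery around the snoRNA hosts was measured as well. Of the box C/D snoRNA proteins, Nop56 stood at 126 ± 15.9 CPM, Nhp2l1 at 49.2 ± 3.89 CPM and the methyltransferase gene Fbl at 18.7 ± 2.06 CPM. All 14 of 14 nonsense-mediated decay factors reached 1 CPM in every library, against 57.3% of all protein-coding genes. The kinase gene Smg1 stood at 89.2 ± 3.82 CPM and the exon junction gene Magoh at 12.1 ± 3.68 CPM. Coding genes that also host snoRNAs had a median of 68.7 RPKM, led by the chaperone gene Hspa8 at 1720 ± 85.5 CPM and the elongation factor gene Eef2 at 587 ± 57.2 CPM, with Taf1d at 5.90 ± 1.43 CPM. The 14 noncoding hosts with a known length had a median of 2.08 RPKM. Classical oligopyrimidine messages had a median of 71.7 RPKM, with Eef1a1 at 825 ± 108 CPM and Eef1d at 32.0 ± 3.76 CPM. Coding messages known to keep introns in the nucleus had a median of 7.18 RPKM, with the helicase gene Ddx5 at 332 ± 31.2 CPM and the splicing kinase gene Clk1 at 9.49 ± 1.16 CPM.

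For scale, neuronal coding messages had a median of 208 RPKM, led by Snap25 at 24671 ± 987 CPM and Map1b at 3781 ± 411 CPM, with Tubb3 at 122 ± 3.70 CPM. Ubiquitous coding messages had a median of 93.5 RPKM, with Ywhaz at 5584 ± 115 CPM and Gapdh at 3657 ± 44.8 CPM. On the list of other long noncoding RNAs 16 of 24 reached 1 CPM in every library and the median was 0.618 RPKM. Over all symbols 37.9% did so, and over long noncoding genes other than the RNAs named at the outset 12% did. The list was led by 6330403K07Rik at 940 ± 107 CPM and by the imprinted RNA Peg13 at 400.4 ± 14.3 CPM. Both annotations list 6330403K07Rik, which is among the 16, as protein coding. Hotairm1, H19, Tsix and Bc1 were at 0 counts in all libraries. Reads placed at several positions were left out, and those in shared exonic bases may have been. A value of 0 counts therefore does not show that an RNA was absent.

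**Figure D4:**
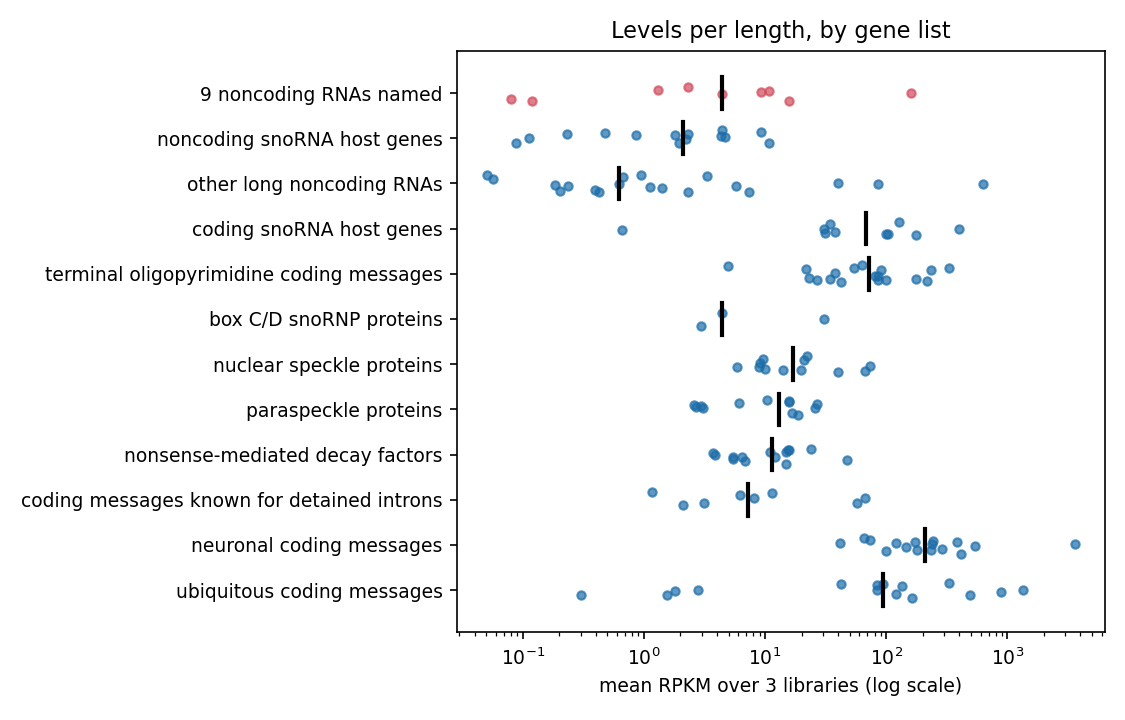
Mean RPKM over 3 libraries on a log axis for the 9 noncoding RNAs (red, top row) and for listed groups of noncoding and coding genes (blue), with 1 point per gene, jittered vertically, and a black bar at each list's median. Snhg1, Snhg11, Gas5 and Rian also appear among the noncoding snoRNA hosts, and genes at 0 are not drawn but count in the median. The coding snoRNA hosts have a median of 68.7 RPKM and the noncoding hosts one of 2.08 RPKM.

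The coding genes whose CPM lay closest over the 3 libraries were found by the root-mean-square distance in log2(CPM + 0.5). For Malat1 these were Cmip, at 1038, 1193 and 1216 CPM in replicates 1, 2 and 3 and a distance of 0.10, the amyloid precursor family gene Aplp1 at 0.12, and Prkacb, a catalytic subunit of protein kinase A, at 0.14. For Meg3 they were Git1, Btbd3 and the ubiquitin hydrolase gene Uchl1, with distances of 0.03, 0.05 and 0.05. For Snhg11 they were Atrnl1, Cygb and St3gal5, at 0.04 each. For Gas5 they were Sh3bgrl at 0.04, Ccdc82 at 0.04 and Smu1 at 0.05. Over only 3 libraries this likeness is mainly one of level.

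The last comparison asked which of these RNAs varied between the libraries more than genes of like abundance. None of the 9 did at an adjusted p of 0.05 in the goodness of fit of an edgeR model, where 0.244% of 14774 genes tested were called, and 0 of 9 had an unadjusted p under 0.05, where 7.22% of genes did. In other fits of the same test some did: Malat1 with a trend fitted over abundance bins (unadjusted p = 0.0011 and adjusted p = 0.133 in edgeR) and without replicate 2 (unadjusted p = 0.048), and Neat1 without replicate 1 (unadjusted p = 0.0494). With DESeq2 size factors in the same fit the count was also 0 of 9. The coefficient of variation was 8.59% for Meg3, 9.65% for Gas5, 10.1% for Miat, 10.2% for Snhg11, 11.7% for Rian and 15.4% for Malat1, against a median of 15.5% over the coding genes. It was 35.2% for Snhg1 (adjusted p = 0.929 in edgeR), 77.9% for Mirg (adjusted p = 1) and 83.4% for Neat1 (adjusted p = 0.842). Malat1 had the smallest unadjusted p of the 9, at 0.0915 (adjusted p = 0.816 in edgeR). With 1 common dispersion for all genes, Neat1 was called (adjusted p = 0.0131 in edgeR), but so were 7.43% of all genes. Mirg had an unadjusted p of 0.0216 in that edgeR fit, where 2084 of 14774 genes were under 0.05. On each of the other lists described above, 0 genes were called by edgeR, and between 0 and 5 genes of a list had an unadjusted p under 0.05. The highest, 5 of 19 tested, was on the list of other long noncoding RNAs, against 7.22% of all genes tested.

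**Figure D5:**
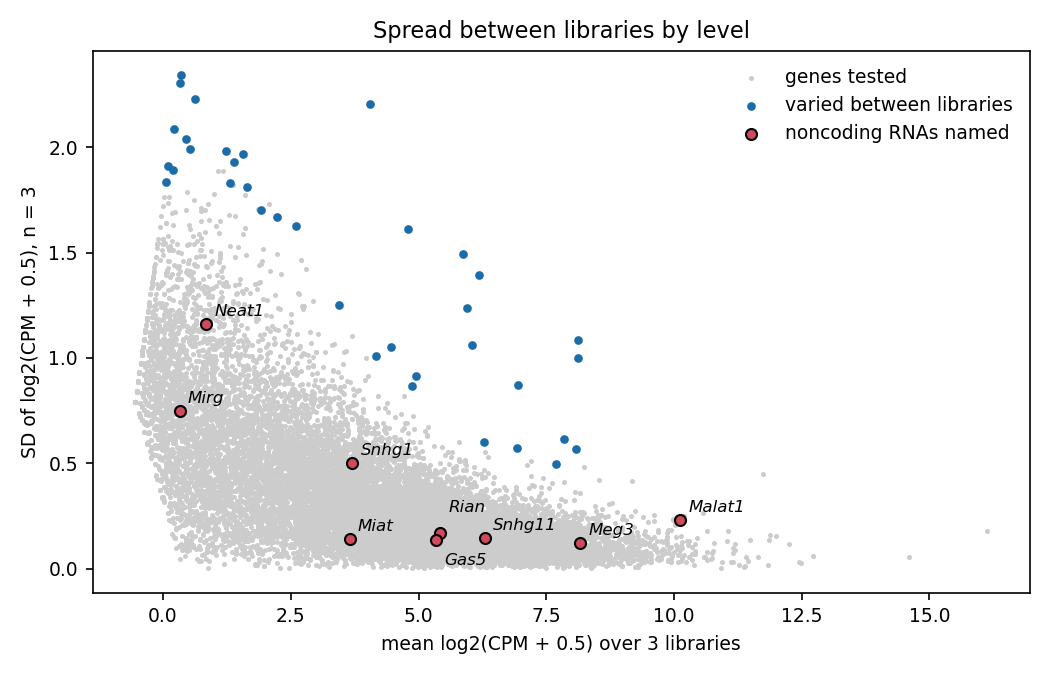
SD of log2(CPM + 0.5) over the 3 libraries against its mean, for 14774 genes tested (grey), the 36 genes called as varying between libraries (blue) and the 9 noncoding RNAs (red, outlined). All 9 noncoding RNAs lie among the grey points, with the SD highest for Neat1 and Mirg, which have 52 and 30 counts in all.

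Together the 9 RNAs held 0.137%, 0.166% and 0.176% of the counts in named genes in replicates 1, 2 and 3, with exact binomial 95% intervals of 0.135% to 0.140%, 0.164% to 0.169% and 0.174% to 0.178%. Malat1 made up 70.1% ± 2.21 of these counts (SD, n = 3), and Malat1 and Meg3 together 88.1% ± 1.19. The share was lowest in replicate 1 and highest in replicate 3, beyond counting error. The ribosomal RNA precursor gene Rn45s had the same order, at 6.43%, 6.98% and 8.19% of counts, as did the sums of astrocyte and oligodendrocyte markers given above. Their part in the share of the noncoding RNAs was not tested.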

How the data were processed

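RNA from 3 immunopurified samples was sequenced. For each library the authors deposited a list of unnormalized counts by symbol that ends in the summary lines of HTSeq. The submitters' processing notes name STAR 2.0.0e, HTSeq and mm10. Which annotation and strand setting the counting used is not given in the sources here, and reads of overlapping or antisense genes may not have been told apart. Lines that name no gene held 27.8% ± 0.563 of all counts (SD, n = 3) and were left out, among them reads placed at several positions.

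CPM used totals over named genes. RPKM used merged exons of GENCODE M21 (GRCm38), matched by symbol for 93.95% of genes that reached 1 CPM in all 3 libraries. Positions and transcripts came from GENCODE M21, start sites from RefSeq GRCm38.p6, where 8 of the 9 RNAs had an entry. Floors and intervals cover counting error only, and a count of 0 allows up to 3 counts.

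Spread between libraries was tested with edgeR 4.0.16, as the lack of fit of a negative binomial model with 1 mean per gene (TMM, trended dispersion, at least 10 counts in 1 library, Benjamini-Hochberg adjustment over all genes) under R 4.3.3. Alternatives were DESeq2 1.42.0 size factors, other count minimums and dispersions, totals without Rn45s, other lengths and pseudocounts, and each replicate left out. In data simulated for this test with 14148 genes, 86% of 4-fold and 100% of 8-fold changes in 1 library were recovered, and 19 genes left unchanged were called. The simulated counts were drawn with the trended dispersions of the test itself, so performance where genes depart from the trend was not tested. The changes were planted only in genes with more counts than Mirg and Neat1, so recovery at such low counts was not tested. Python 3.11.15, pandas 2.3.3 and scipy 1.17.1 were used.

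The RNAs, lists and tests were chosen with earlier results of these data known. Named genes were the 9 RNAs, the highest pair and the lowest gene of each list by CPM, and the 3 nearest coding genes of Malat1, Meg3, Snhg11 and Gas5. Some marker genes that this rule names are given as sums only, and some genes it names are not reported here. The labels do not say whether the pools came from separate litters or days, so p-values measure the spread between these samples.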

Additional observations from a re-analysis of the deposited data

How the results depend on the processing

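All 36 genes called as varying came from 1 trended dispersion. With a common dispersion 1097 genes were called, and 1 of the 9 RNAs, Neat1. With a trend fitted over abundance bins, chosen after seeing the data, 71 genes were called and 0 of the 9. Without each replicate in turn 16 to 21 genes and 0 of the 9 were called; Mirg could not be tested without replicate 3. DESeq2 size factors, other count minimums and totals without Rn45s kept the number of genes within 1.5 times and called 0 of the RNAs tested. With at least 50 counts in 1 library only 7 of the 9 were tested, since Mirg and Neat1 fell below that minimum. An unadjusted p under 0.05 was reached by 2 of the 9 with a common dispersion and by 1 of the 9 with the binned trend, without replicate 1 and without replicate 2. Of the neighbour differences in level recomputed, 57 kept and 7 changed their sign. On the CPM scale Gas5 minus Snhg11 was -0.95, Snhg1 minus Rian -1.71 and Mirg minus Neat1 -0.52, and Miat minus Mirg (3.32) and Meg3 minus Gas5 (2.81) were larger than Malat1 minus Meg3 (1.96). Snhg1 minus Rian was -0.18 with the longest transcript, and Snhg11 minus Snhg1 was -0.63 with the longest or shortest RefSeq-linked transcript, lengths chosen after seeing the data. Meg3 minus Dlk1 turned to 0.23 in CPM and kept its sign with the other lengths and without each replicate. Mirg minus Neat1 ran from -0.36 without replicate 3 to 0.63 without replicate 1. Among standings against coding genes, 25 recomputed values moved beyond the spread between libraries. That of Snhg1 was above 32.8% of them in CPM and 75.6% with the RefSeq-linked transcript, that of Meg3 was above 95.2% in CPM, and 4 to 5 of the 9 RNAs lay above the coding median under the alternatives run. Mean CPM of each RNA moved by less than its SD in all 45 recomputed values. Values with 1 of 3 libraries left out could not do otherwise, as this cannot move a mean by a full SD. Depth limits Mirg and Neat1, with 3 counts in 1 library each. No paired analysis was possible because there is 1 group and so no groups to pair; differences between genes were taken within each library.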
